A study of Mus musculus with 8 samples.

Results

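The subject is a set of 45 genes of DNA replication, taken by symbol from a list of known replication factors, with no threshold on a measured value, in naive B cells of the mouse spleen. All 45 were found among the 23302 entries of the deposited expression table, and all 45 passed the filter on low values that left 13011 genes for testing. RNA sequencing covered 8 libraries in 4 groups of 2, all from spleens of C57BL/6 mice. WT nontumor and WT tumor came from mice of WT genotype, the latter bearing a pancreatic tumor. EBi3KO nontumor and EBi3KO tumor came from mice whose genotype is labelled B-EBi3- and written BEBi3-/- in the design, which lack Ebi3, a cytokine subunit, in B cells. What drives that deletion, the tumor model, and the age and sex of the animals were not given in the sources used here. A tumor status labelled WT was read as no tumor, and every tumor comparison rests on that reading. Whether a pair of libraries in a group stems from separate animals is not stated, and p-values therefore reflect no more than the spread between the libraries at hand.

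A cell copies its genome once per division, in S phase. In G1 the origin recognition complex, Cdc6 and Cdt1 load the ring-shaped MCM helicase onto DNA. Cyclin E and its kinase then help to fire the origins, Cdc45 and the GINS complex switch the helicase on, and polymerases, the sliding clamp PCNA and its loader copy both strands from a supply of deoxynucleotides. Many of these genes carry E2F sites in their promoters, through which E2F factors switch them on at the G1 to S transition. Naive B cells rest outside the cycle until antigen activates them, and the spleen of a mouse also makes red blood cells, whose precursors divide quickly.

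Values are normalized counts, which the authors obtained by dividing reads by a size factor per library. A tumor effect is the tumor minus the nontumor group on a log2 scale after adding 1, so that a value of -1 stands for a 2-fold fall. A gene is called higher or lower where the adjusted p from limma, a linear model fitted across all tested genes, was below 0.05. Depth ran from 21291892 to 28297319 reads per library, and no replication gene had fewer than 54 reads in any library. Ebi3 itself stood at 8.94 and 10.97 without a tumor and 201 and 164 with one in WT mice, and at 12.8 and 11.5 without and 8.70 and 11 with one in EBi3KO mice. The EBi3KO libraries were near the WT nontumor level, so Ebi3 separated the genotypes in tumor mice only. Both WT tumor libraries carried a female pattern (Xist at 19758 and 26191, the Y-linked Kdm5d at 0) and a title prefix of their own, while the other 6 carried a male pattern and a common prefix. The tumor effect in WT and every comparison that uses those libraries therefore cannot be told apart from these differences, which the tumor effect in EBi3KO does not carry.

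Promoters are shown for 5 of the genes: Rrm2, Cdc6 and Orc1, which fell most in WT among the genes with 1 promoter in the table, Rfc1, which rose, and Gins3, which was called in neither genotype. Each line gives the 250 bases before a start site listed for the gene in RefSeq (GRCm38.p6), read 5′ to 3′ on the strand of the gene. Matches to the E2F core and the CCAAT box are in capitals on either strand. That start site was the annotated start of the gene for Rrm2 and Gins3. For Cdc6, Orc1 and Rfc1 the printed bases lay inside the annotated span of the gene. The intervals are chr12:24708004-24708253 (plus strand) for Rrm2, chr11:98907901-98908150 (plus) for Cdc6, chr4:108579204-108579453 (plus) for Orc1, chr5:65335640-65335889 (minus) for Rfc1 and chr8:95633309-95633558 (plus) for Gins3.
Rrm2: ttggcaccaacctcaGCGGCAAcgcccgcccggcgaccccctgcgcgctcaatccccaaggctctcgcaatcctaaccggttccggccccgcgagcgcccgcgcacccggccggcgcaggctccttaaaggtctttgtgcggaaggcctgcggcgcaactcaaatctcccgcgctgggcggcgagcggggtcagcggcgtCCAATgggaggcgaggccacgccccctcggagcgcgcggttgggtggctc
Cdc6: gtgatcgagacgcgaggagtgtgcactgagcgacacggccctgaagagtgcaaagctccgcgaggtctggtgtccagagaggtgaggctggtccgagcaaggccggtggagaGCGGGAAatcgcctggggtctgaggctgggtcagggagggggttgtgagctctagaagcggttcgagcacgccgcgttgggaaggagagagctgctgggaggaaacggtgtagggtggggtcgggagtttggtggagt
Orc1: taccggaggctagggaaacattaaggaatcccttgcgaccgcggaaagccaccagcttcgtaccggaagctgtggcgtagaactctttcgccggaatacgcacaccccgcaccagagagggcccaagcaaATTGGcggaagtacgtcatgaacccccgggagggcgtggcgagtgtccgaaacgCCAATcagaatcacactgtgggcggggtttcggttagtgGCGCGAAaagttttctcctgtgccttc
Rfc1: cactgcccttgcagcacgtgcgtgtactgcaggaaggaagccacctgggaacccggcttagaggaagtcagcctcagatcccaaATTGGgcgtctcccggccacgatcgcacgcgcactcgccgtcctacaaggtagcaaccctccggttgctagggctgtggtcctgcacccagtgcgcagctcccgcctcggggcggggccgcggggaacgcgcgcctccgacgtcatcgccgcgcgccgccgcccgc
Gins3: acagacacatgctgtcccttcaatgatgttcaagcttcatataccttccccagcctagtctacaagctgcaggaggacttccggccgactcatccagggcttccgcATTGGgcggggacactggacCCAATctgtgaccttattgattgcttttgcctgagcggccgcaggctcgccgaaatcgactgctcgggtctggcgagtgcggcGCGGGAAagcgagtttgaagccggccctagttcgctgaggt
The E2F core match began at position -235 in Rrm2, -138 in Cdc6, -27 in Orc1 and -41 in Gins3, where -1 is the last base before the start. The 250 bases printed for Rfc1 held a CCAAT box and no E2F core match, while the 50 bases after its start, which are not printed, held 2.

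Tumor-bearing WT mice had less RNA of nearly every replication gene in their splenic B cells. Of the 45 genes 42 fell, 2 rose (Rfc1 and Pole) and 1 was not called (Gins3), where 40.1% of all tested genes were called lower and 39.6% higher. The median log2 difference of the 45 was -1.31, beside 0.01 for all tested genes. At least 2-fold lower were 31 of them, against 21.4% of all tested genes. The deepest falls of the set, each at least 4-fold, were those of Rrm2, Cdc6, Ccne2, Gins2, Orc1 and Gins1. How many of all tested genes fell that far was not counted. For 43 of the 45 both tumor libraries lay below both nontumor libraries, which held for 45.6% of all tested genes, and for 2 they lay above, which held for 45.8%.

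In EBi3KO mice most of the 45 genes fell as well. Of these 40 fell, 1 rose (Rfc1) and 4 were not called (Gins3, Pold1, Pole and Rpa1), where 18.5% of all tested genes were called lower and 14.1% higher. The median was -0.99, beside -0.01 for all tested genes, and 22 genes were at least 2-fold lower, against 4.44% of all tested. The deepest falls of the set, each at least 4-fold, were those of Ccne2, Rrm2, Cdc6 and Orc1, a depth not counted over all tested genes. With 1 library left out at a time, the median ran from -1.05 to -0.91, and the rise of Rfc1 was not called in 3 of these fits. The fewest falls were called without EBi3KO tumor replicate 2, where the share of all tested genes called was also the lowest.

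The same 40 genes were called lower in both genotypes, a share of 17.2% among all tested genes, and Pold1 and Rpa1 were called lower in WT alone. No library is shared between the 2 tumor effects, but their calls share an estimate of the spread from 1 fit over all 8 libraries. Their values over the 45 genes gave a Pearson r of 0.87 and a Spearman rho of 0.81, against 0.77 and 0.80 over all 13011 tested genes; the points share the size factors of their libraries and are not independent. Summed over the 45 genes, replication genes took 0.284 and 0.321% of all reads without a tumor and 0.192 and 0.189% with one in WT mice, and 0.321 and 0.318% without and 0.195 and 0.195% with one in EBi3KO mice. Both tumor groups thus lay below both nontumor groups in every library. In RNA of bulk cells, fewer dividing cells and less RNA per cell cannot be told apart.

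**Figure D1:**
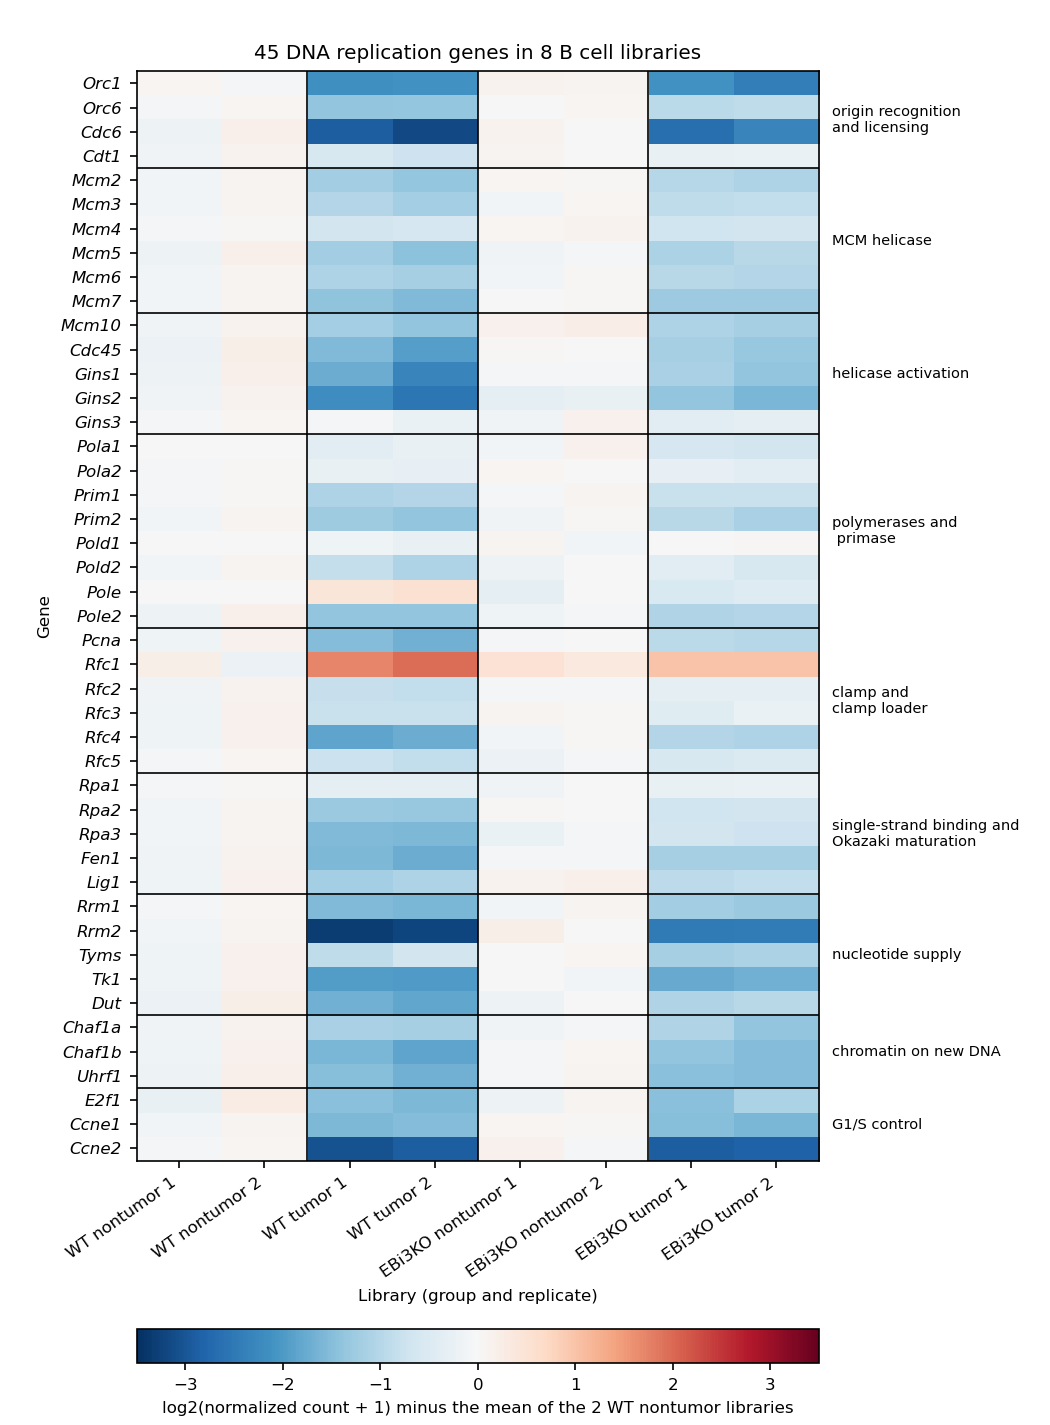
Each row is 1 of the 45 genes, grouped by role, and each column 1 of the 8 libraries; color is log2(normalized count + 1) minus the mean of the 2 WT nontumor libraries. The 4 tumor columns are blue in nearly every row, most deeply for Rrm2, Cdc6 and Ccne2, while Rfc1 is red.

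The choice of scaling bears on the smallest of these differences. When each library was divided by its total reads in place of the deposited size factors, a setting added after the data had been seen, the median of all tested genes moved to 0.46 in WT and 0.17 in EBi3KO. The replication genes then had medians of -0.86 and -0.81, with 37 called lower and 4 higher in WT and 34 lower and 1 higher in EBi3KO. Over all tested genes, 27.1% were called lower and 54.0% higher in WT under that scaling, and 10.4% lower and 29.3% higher in EBi3KO.

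The 4 licensing genes fell in both genotypes, with a median of -1.76 in WT and -1.67 in EBi3KO. Cdc6, the ATPase that loads MCM rings together with the origin recognition complex, stood at 937 and 1185 without a tumor and 141 and 117 with one in WT mice, and at 1149 and 1054 without and 169.6 and 212 with one in EBi3KO mice. No tumor library came near a nontumor one in either genotype. The log2 difference was -3.03 in WT (SE 0.16, limma adjusted p = 9.44e-07) and -2.53 in EBi3KO (SE 0.16, limma adjusted p = 2.89e-05), which left 12.1% and 17.3% of the nontumor mean. Orc1, the cycle-regulated subunit of the origin recognition complex, stood at 284 and 254 without a tumor and 59.6 and 60.6 with one in WT mice, and at 293 and 287 without and 60.9 and 49.5 with one in EBi3KO mice. Its groups did not overlap by tumor status, and it was the 1 licensing gene whose fall was the deeper in EBi3KO, at -2.38 against -2.14, a difference that was not called (interaction limma adjusted p = 0.392). Orc6, a smaller subunit of that complex, fell by 1.38 on the log2 scale in WT and by 0.96 in EBi3KO.

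Cdt1, which escorts MCM to the origin and was the most abundant licensing gene, changed least. It stood at 1533 and 1792 without a tumor and 1115 and 999.6 with one in WT mice, and at 1779.8 and 1658 without and 1374 and 1403 with one in EBi3KO mice. The tumor libraries were lower in both genotypes, with those of EBi3KO the closer to the nontumor level. Its log2 difference was -0.65 in WT (SE 0.097, limma adjusted p = 0.000252) and -0.31 in EBi3KO (SE 0.097, limma adjusted p = 0.0413). The EBi3KO call was lost when any of 6 libraries was left out (EBi3KO nontumor 1 or 2, EBi3KO tumor 1 or 2, WT tumor 1 or 2), with values of -0.36 to -0.26.

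All 6 subunits of the MCM helicase fell in both genotypes, within a narrow band: -1.48 to -0.62 in WT and -1.28 to -0.76 in EBi3KO. Mcm7 fell most. It stood at 4282 and 4971 without a tumor and 1733 and 1574 with one in WT mice, and at 4531 and 4749 without and 1913 and 1916 with one in EBi3KO mice, with a log2 difference of -1.48 in WT (SE 0.089, limma adjusted p = 1.72e-06) and -1.28 in EBi3KO (SE 0.089, limma adjusted p = 4.76e-05). Mcm4 fell least in both genotypes, at 3215 and 3342 without a tumor and 2082 and 2185 with one in WT mice, and at 3409 and 3574 without and 2032 and 2083 with one in EBi3KO mice, with a log2 difference of -0.62 in WT (SE 0.068, limma adjusted p = 3.86e-05) and -0.76 in EBi3KO (SE 0.068, limma adjusted p = 0.000197). Mcm6, the subunit with the highest count, stood at 4444 and 5082 without a tumor and 2247 and 2117 with one in WT mice, and at 4454 and 4931 without and 2411 and 2319 with one in EBi3KO mice. Its tumor libraries held about the same level in both genotypes, and the difference was -1.12 in WT and -0.99 in EBi3KO. Within each genotype, both tumor libraries lay below both nontumor libraries for each of the 6 subunits. The same held for 45.6% of all tested genes in WT and 39% in EBi3KO. None of the 6 differed between the 2 tumor effects by the test of the interaction. After a correction for transcript length and GC content Mcm6 was called (0.47, limma adjusted p = 0.0491).

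Helicase activation held both a deep fall and the gene that moved least in WT. Gins2, a subunit of the GINS complex that joins MCM and Cdc45 in the active helicase, stood at 323 and 383 without a tumor and 77.8 and 60.6 with one in WT mice, and at 275 and 294 without and 136 and 116 with one in EBi3KO mice. The 2 WT tumor libraries were lowest, the 2 EBi3KO tumor libraries stood between them and the nontumor libraries, and no groups of different tumor status overlapped. On the log2 scale this was -2.34 in WT (SE 0.17, limma adjusted p = 4.07e-06) and -1.17 in EBi3KO (SE 0.17, limma adjusted p = 0.00226). Gins3, another subunit of the same complex, stood at 243 and 263 without a tumor and 241 and 216 with one in WT mice, and at 234 and 279 without and 192 and 199 with one in EBi3KO mice. In WT its groups nearly touched, at -0.15 (SE 0.13, limma adjusted p = 0.329), and in EBi3KO it was at -0.38 (SE 0.13, limma adjusted p = 0.0556), so it was called in neither. Cdc45, the partner of MCM in unwinding, had the highest mean count of these genes. It stood at 461 and 623 without a tumor and 182 and 139 with one in WT mice. In EBi3KO mice Cdc45 stood at 547 and 539 without and 238 and 214 with one. Its fall was 1.74 in WT and 1.26 in EBi3KO on the log2 scale. Gins1 fell by 2.02 and 1.20, and Mcm10, which binds the new fork, by 1.29 and 1.31; the call of Gins1 in EBi3KO was lost without EBi3KO tumor replicate 2, at -1.08.

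The polymerase and primase genes split: Pola1, Pola2, Pold1 and Pole lay within 0.5 of 0 in WT, and the other 4 fell by at least 0.96. The 8 genes of polymerases and primase had a median of -0.63 in WT and -0.51 in EBi3KO. Pole2, the second subunit of polymerase epsilon, fell most in WT. It stood at 359 and 453 without a tumor and 154 and 153 with one in WT mice, and at 362 and 386 without and 194 and 197 with one in EBi3KO mice, with a log2 difference of -1.39 in WT (SE 0.13, limma adjusted p = 1.77e-05) and -0.93 in EBi3KO (SE 0.13, limma adjusted p = 0.00216). Pole, the catalytic subunit of the same enzyme and the leading-strand polymerase, stood at 316 and 309 without a tumor and 420.1 and 455 with one in WT mice, and at 252 and 313 without and 217 and 230.1 with one in EBi3KO mice. It was higher in both WT tumor libraries than in either WT nontumor library, and lower in both EBi3KO tumor libraries than in either EBi3KO nontumor library. The log2 difference was 0.48 in WT (SE 0.13, limma adjusted p = 0.0072) and -0.33 in EBi3KO (SE 0.13, limma adjusted p = 0.079). The rise in WT turned to -0.24 in a fit that first took out how each library varied with transcript length and GC content (the length and GC correction), and it was 0.43 and no longer called without WT tumor replicate 2.

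Pold1, the catalytic subunit of the lagging-strand polymerase delta and the most abundant of the polymerase genes, stood at 2193 and 2233 without a tumor and 1986 and 1831 with one in WT mice, and at 2343 and 2073 without and 2174 and 2286 with one in EBi3KO mice. Its EBi3KO groups overlapped, and its WT groups were close together without overlap. Its log2 tumor effect was -0.21 in WT (SE 0.083, limma adjusted p = 0.0392) and 0.02 in EBi3KO (SE 0.083, limma adjusted p = 0.889). That WT call was lost without WT nontumor replicate 1 or 2, WT tumor replicate 2, or EBi3KO tumor replicate 1 or 2 (values -0.23 to -0.16), and scaling by total reads turned it to 0.24. Pold2, its accessory subunit, fell by 0.96 in WT and 0.37 in EBi3KO; the EBi3KO call was lost without any 1 library of WT tumor or of either EBi3KO group, at -0.46 to -0.29.

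Both primase subunits, which lay down the RNA primers, fell in each genotype: Prim1 by 1.04 and 0.81, and Prim2 by 1.31 and 1.0 on the log2 scale. Polymerase alpha, which extends those primers, was nearer to 0 than primase. Pola1, its catalytic subunit, was at -0.30 in WT and -0.64 in EBi3KO, and Pola2, its second subunit, at -0.28 and -0.37. All 4 values were called lower with the deposited size factors, but scaling by total reads turned the WT values to 0.15 for Pola1 and 0.18 for Pola2, and the length and GC correction turned that of Pola2 to 0.07. The WT call of Pola1 was also lost without WT nontumor replicate 1 or 2 or WT tumor replicate 1 (-0.31, -0.30 and -0.25), and that of Pola2 without WT tumor replicate 2 (-0.27). In EBi3KO, Pola2 lost its call without either EBi3KO tumor library (-0.41 and -0.33), and Pola1 without EBi3KO tumor replicate 2 (-0.62). Pola1 is the only X-linked gene of the set, and the WT tumor libraries alone carried a female pattern. The part of that in its WT value was not tested.

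**Figure D2:**
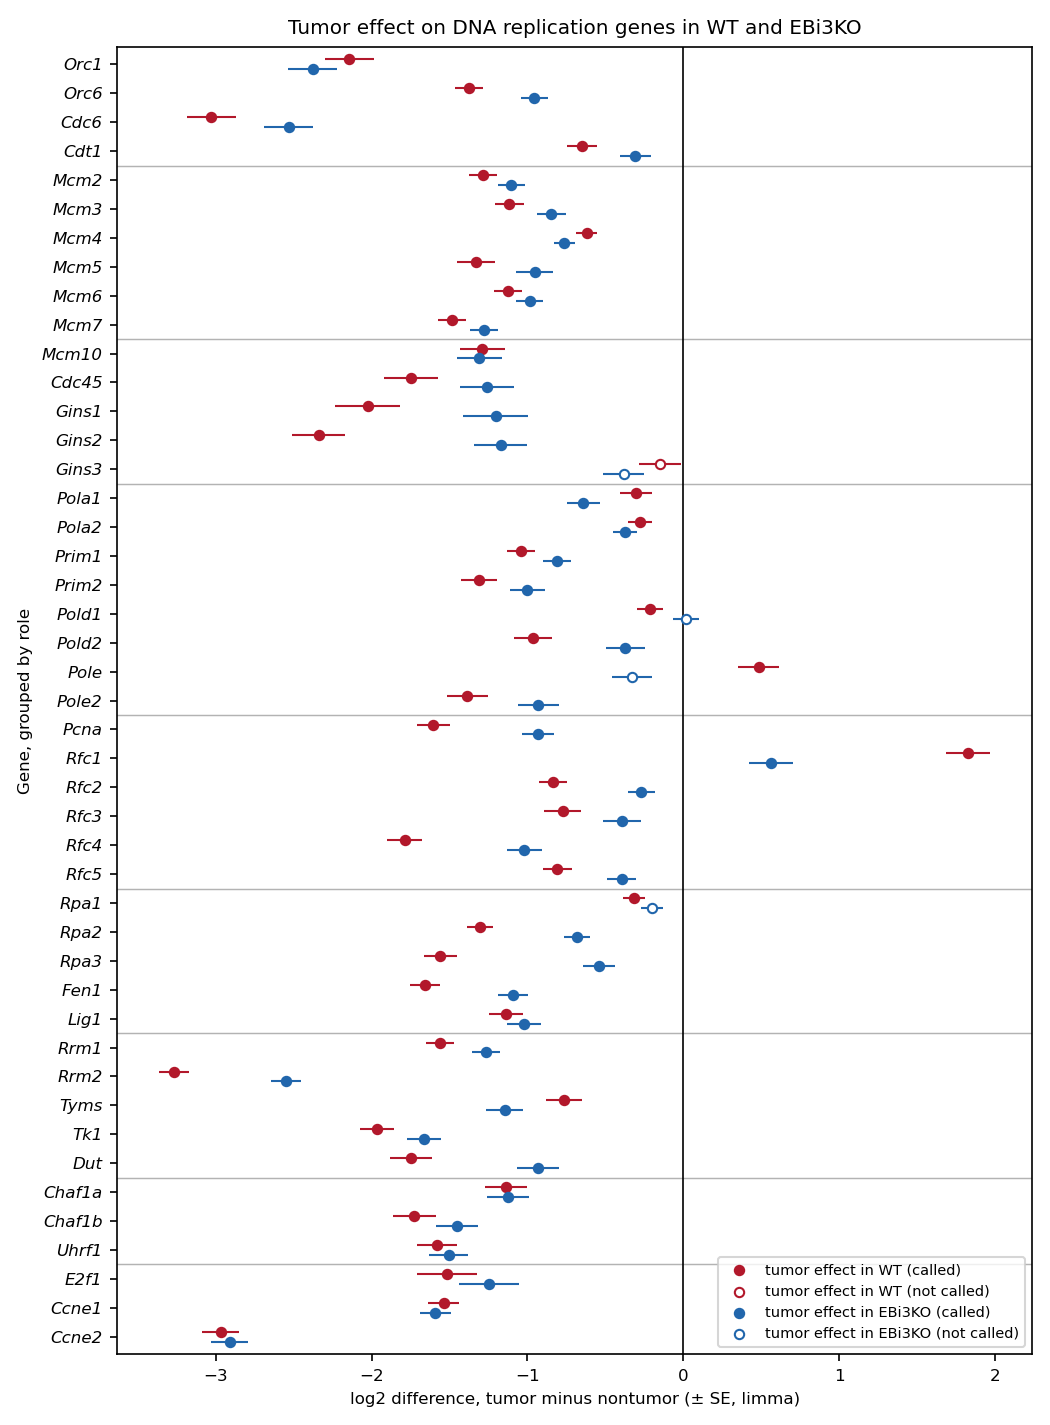
Log2 tumor effect of each of the 45 genes with its limma standard error, red for WT and blue for EBi3KO, filled where called and open where not, ordered by role. Rrm2, Cdc6 and Ccne2 lie furthest left at -3.27, -3.03 and -2.97 in WT, Rfc1 lies to the right in both genotypes, and Pole lies on opposite sides of 0.

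Among the clamp and its loader, 5 of 6 genes fell in each genotype and Rfc1 rose. Pcna, the sliding clamp that tethers polymerases to DNA, was the most abundant replication gene per kilobase of transcript in all 4 groups. It stood at 9646 and 11888 without a tumor and 3734 and 3321 with one in WT mice, and at 10278 and 10680.1 without and 5617 and 5369 with one in EBi3KO mice. The WT tumor libraries were lowest, those of EBi3KO tumor came next, and all nontumor libraries stood well above both. On the log2 scale this was -1.60 in WT (SE 0.11, limma adjusted p = 2.61e-06) and -0.93 in EBi3KO (SE 0.11, limma adjusted p = 0.000684).

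Rfc1, the large subunit of the clamp loader, went against the rest. It stood at 1071 and 793 without a tumor and 3017 and 3555 with one in WT mice, and at 1317 and 1165 without and 1833 and 1830.5 with one in EBi3KO mice. Both WT tumor libraries exceeded every other library, the EBi3KO tumor pair came next, and no nontumor library reached either. The log2 difference was 1.83 in WT (SE 0.14, limma adjusted p = 5.78e-06) and 0.56 in EBi3KO (SE 0.14, limma adjusted p = 0.0207), or 353% and 148% of the nontumor mean. In WT the rise was kept under all 27 alternatives, at 1.36 to 2.28. In EBi3KO the call was lost without EBi3KO nontumor replicate 2 (0.48) and without EBi3KO tumor replicate 1 or 2 (0.56 each).

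The 4 small loader subunits, which form the ring beside Rfc1, fell unequally. Rfc4 fell by 1.79 in WT and 1.02 in EBi3KO on the log2 scale. Rfc3, which fell least in WT, stood at 781 and 973 without a tumor and 511 and 507 with one in WT mice, and at 926 and 899 without and 645 and 748 with one in EBi3KO mice, with a log2 difference of -0.77 in WT (SE 0.12, limma adjusted p = 0.00031) and -0.39 in EBi3KO (SE 0.12, limma adjusted p = 0.0367). With the length and GC correction its WT value was 0.000682. Rfc2 was at -0.84 and -0.27, and Rfc5 at -0.81 and -0.40. Single libraries decided the EBi3KO calls of these 3: those of Rfc2 and Rfc3 were lost without any 1 library of WT tumor or of either EBi3KO group (-0.28 to -0.26 and -0.50 to -0.29), and that of Rfc5 without EBi3KO nontumor replicate 2 or either EBi3KO tumor library (-0.42 to -0.34).

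Of the genes that coat single strands and finish Okazaki fragments, all 5 fell in WT and 4 of 5 in EBi3KO. Fen1, the nuclease that trims the flap of each fragment, fell most. It stood at 2444 and 2914 without a tumor and 889 and 803 with one in WT mice, and at 2540.0 and 2579 without and 1200.4 and 1198 with one in EBi3KO mice, with a log2 difference of -1.66 in WT (SE 0.096, limma adjusted p = 1.51e-06) and -1.09 in EBi3KO (SE 0.096, limma adjusted p = 0.000177). Lig1, the ligase that seals the fragments, fell by 1.14 and 1.02. The 3 subunits of replication protein A, which coats single strands, did not move alike. Rpa1, the largest subunit and the most abundant gene of this role by count, stood at 4939 and 5192 without a tumor and 4074 and 4058 with one in WT mice, and at 4676 and 5123 without and 4228 and 4288 with one in EBi3KO mice. The tumor libraries were lower in both genotypes, by a small margin. Its log2 tumor effect was -0.32 in WT (SE 0.071, limma adjusted p = 0.0028) and -0.20 in EBi3KO (SE 0.071, limma adjusted p = 0.0576), and scaling by total reads turned the WT value to 0.13. Rpa2 fell by 1.30 in WT and 0.68 in EBi3KO, and Rpa3, the smallest subunit, by 1.56 and 0.54, the latter not called without EBi3KO nontumor replicate 2 or either EBi3KO tumor library (-0.58 to -0.44).

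All 5 genes of nucleotide supply fell in both genotypes, with medians of -1.74 and -1.26. Rrm2, the small subunit of ribonucleotide reductase that is made in S phase, fell more than any other replication gene in WT. It stood at 4921 and 5602 without a tumor and 522 and 567 with one in WT mice, and at 6022 and 5252 without and 952 and 967 with one in EBi3KO mice. All 4 tumor libraries were far below the nontumor ones, lowest in WT. Per kilobase of transcript it ranked 2 of the 45 in both nontumor groups, 25 in WT tumor and 18 in EBi3KO tumor. Its count in tumor mice was 10.3% of the nontumor mean in WT and 17% in EBi3KO. Rrm1, the large subunit of that enzyme, had the highest mean count of the role. It stood at 5989.7 and 6683 without a tumor and 2179.7 and 2106 with one in WT mice. In EBi3KO mice Rrm1 stood at 5904 and 6757 without and 2704 and 2555 with one. Its tumor libraries were well below all nontumor libraries, with a log2 difference of -1.56 in WT (SE 0.089, limma adjusted p = 1.38e-06) and -1.26 in EBi3KO (SE 0.089, limma adjusted p = 5.02e-05).

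Tyms, which makes thymidylate, fell least of the 5 in WT. It stood at 1054 and 1284 without a tumor and 630.5 and 743 with one in WT mice, and at 1151 and 1208 without and 522 and 543 with one in EBi3KO mice. The EBi3KO tumor libraries were the lowest, and no tumor library overlapped a nontumor one. The log2 tumor effect was -0.76 in WT (SE 0.12, limma adjusted p = 0.000299) and -1.15 in EBi3KO (SE 0.12, limma adjusted p = 0.000409). Tk1, the thymidine kinase of the salvage route, fell by 1.97 and 1.66, leaving 25.4% and 31.5% of the nontumor mean. Dut, which removes dUTP from the pool, fell by 1.74 and 0.93.

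The 3 genes that rebuild chromatin on new DNA fell in both genotypes by similar amounts, with medians of -1.58 and -1.45. Chaf1b, the p60 subunit of the histone chaperone CAF-1, stood at 587 and 713 without a tumor and 213 and 179 with one in WT mice, and at 624 and 683 without and 249.6 and 226 with one in EBi3KO mice, with a log2 difference of -1.73 in WT (SE 0.14, limma adjusted p = 6.46e-06) and -1.45 in EBi3KO (SE 0.14, limma adjusted p = 0.000254). Chaf1a, its large subunit, stood at 479.6 and 559.7 without a tumor and 237 and 232 with one in WT mice, and at 473 and 500.5 without and 248 and 199.8 with one in EBi3KO mice. The tumor libraries of both genotypes held about the same level, and the difference was -1.14 in WT and -1.12 in EBi3KO. Uhrf1, which brings the maintenance methyltransferase to hemimethylated DNA, stood at 1726 and 2224 without a tumor and 697 and 615 with one in WT mice, and at 1859 and 2082 without and 707 and 677 with one in EBi3KO mice, with a log2 difference of -1.58 in WT (SE 0.13, limma adjusted p = 6.87e-06) and -1.51 in EBi3KO (SE 0.13, limma adjusted p = 0.000137). None of the 3 differed between the tumor effects by the test of the interaction.

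The 3 regulators of the G1 to S transition also fell in both genotypes. Ccne2, an E-type cyclin, stood at 755 and 841 without a tumor and 96.1 and 106 with one in WT mice, and at 879 and 781 without and 107 and 112 with one in EBi3KO mice. All 4 tumor libraries were near 100 and all nontumor libraries above 750, with a log2 difference of -2.97 in WT (SE 0.12, limma adjusted p = 2.78e-07) and -2.91 in EBi3KO (SE 0.12, limma adjusted p = 3.9e-06). Ccne1, the other E-type cyclin and the more abundant, stood at 899 and 1037 without a tumor and 325 and 339.8 with one in WT mice, and at 1014 and 991 without and 344 and 321 with one in EBi3KO mice, with a difference of -1.54 in WT and -1.59 in EBi3KO. E2f1, an activator of the replication genes, stood at 428 and 608 without a tumor and 185 and 171 with one in WT mice, and at 451 and 542 without and 183 and 236 with one in EBi3KO mice. Both tumor groups were below both nontumor groups, though the WT nontumor libraries differed more from each other than those of other groups. The log2 tumor effect was -1.52 in WT (SE 0.19, limma adjusted p = 9.14e-05) and -1.25 in EBi3KO (SE 0.19, limma adjusted p = 0.00308).

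Per kilobase of transcript, the order of levels in WT shifted most for Rfc1, which ranked 37 of 45 without a tumor and 3 with one. In EBi3KO mice it ranked 34 and 20, and Rrm2 (2 and 18) and Tk1 (7 and 22) moved further. Pold1 ranked 20 in both nontumor groups and 8 in both tumor groups, while Cdc6 went from 36 to 42 in WT and from 36 to 39 in EBi3KO. Pcna kept rank 1 throughout, at a mean of 7093 normalized counts per kilobase in WT nontumor and 2324 with a tumor.

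Without a tumor, the 2 genotypes were close over these genes. The comparison of EBi3KO with WT in nontumor mice called 0 of the 45, as limma called 0 of all 13011 tested genes (0% in each direction). At an unadjusted p under 0.05 there was 1 of the 45, Rfc1 (0.43, SE 0.14, limma adjusted p = 0.604), beside 1049 of all tested genes, and edgeR and DESeq2 on the recovered reads also called 0 of the 45. The differences ran from -0.31 (Gins2) to 0.43 (Rfc1), and 43 of the 45 lay within 0.2 of 0, with a median of 0.01.

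With a tumor, 23 of the 45 were called higher in EBi3KO than in WT and 4 lower, where 31.9% of all tested genes were called higher and 28.6% lower. The median was 0.26, beside -0.0005 for all tested genes. The 4 lower ones were Pole (-0.96), Rfc1 (-0.84), Tyms (-0.36) and the X-linked Pola1 (-0.32). Among the higher ones were Rpa3 (0.88), Gins2 (0.86), Rrm2 (0.82), Dut (0.74) and Rfc4 (0.74). The count rested on single libraries: it fell without WT tumor replicate 2, EBi3KO tumor replicate 1 or EBi3KO tumor replicate 2. The median was then 0.19, 0.26 or 0.26. In each of those fits the share called higher was near that of all tested genes. Tyms lost its call without any of those 3 libraries (-0.39 to -0.24), and Pola1 without any 1 of the 4 tumor libraries (-0.37 to -0.26). Scaling by total reads gave 12 higher and 7 lower, at a median of 0.07 beside -0.19 for all tested genes, of which 23.9% were then called higher and 39.1% lower.

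The interaction asks whether the tumor effect itself differs between genotypes. For 35 of the 45 genes the tumor effect was the more negative in WT. The interaction was below 0 for the other 10, and for 6570 of all 13011 tested genes. The test called 13 of the 35, that is a smaller fall in EBi3KO, and 2 of the 45 the other way. Of all tested genes 27.5% were called higher and 25.4% lower. The share of 13 in 45 (28.9%) is near the 27.5% of all tested genes, so the count of 13 by itself shows nothing particular. The share of 2 in 45 (4.44%) is below the 25.4% called lower among all tested genes. The median was 0.27, beside -0.01 for all tested genes.

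The largest values among the 13 were in Gins2 (1.17, SE 0.24, limma adjusted p = 0.00393) and Rpa3 (1.02, SE 0.15, limma adjusted p = 0.000853). Gins1, Dut, Rfc4, Rrm2, Pcna and Rpa2 lay between 0.62 and 0.82, and Pold2, Rfc2, Fen1, Orc6 and Rfc5 between 0.41 and 0.59. The 2 with a negative interaction were the 2 that had risen in WT, Rfc1 (-1.26, SE 0.2, limma adjusted p = 0.00128) and Pole (-0.81, SE 0.18, limma adjusted p = 0.00616). By role, 4 of 6 clamp and loader genes were called higher and Rfc1 lower, and 3 of 5 single-strand binding and Okazaki genes were called higher. Of the MCM subunits, the chromatin genes and the G1 to S regulators, 0 were called. With the length and GC correction, Mcm6 (0.47, limma adjusted p = 0.0491) and Ccne1 (-0.43, limma adjusted p = 0.0288) were called.

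Without WT nontumor replicate 1 more of the 45 were called, and the median was 0.40, beside -0.02 for all tested genes. Gins1 (0.54 to 0.95), Orc6 (0.34 to 0.45), Rfc5 (0.34 to 0.44) and Pold2 (0.47 to 0.51) each lost their call without WT nontumor replicate 2, WT tumor replicate 2, EBi3KO nontumor replicate 1 or EBi3KO tumor replicate 1. The same happened to Gins1, Orc6 and Rfc5 without EBi3KO tumor replicate 2, to Gins1 without EBi3KO nontumor replicate 2 and to Orc6 without WT tumor replicate 1. Scaling by total reads gave 7 higher and 7 lower, with a median of 0.0004 beside -0.29 for all tested genes, of which 18.9% were then called higher and 37.8% lower. Gins2, Rfc1 and Rrm2 kept their call under all 24 alternatives, while Gins1 lost it under 13, and the comparison uses the WT tumor libraries with their other sex and title prefix. Over the 45 genes the interaction had a Spearman rho of -0.57 with transcript length, and of -0.51 over all tested genes of known length.

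**Figure D3:**
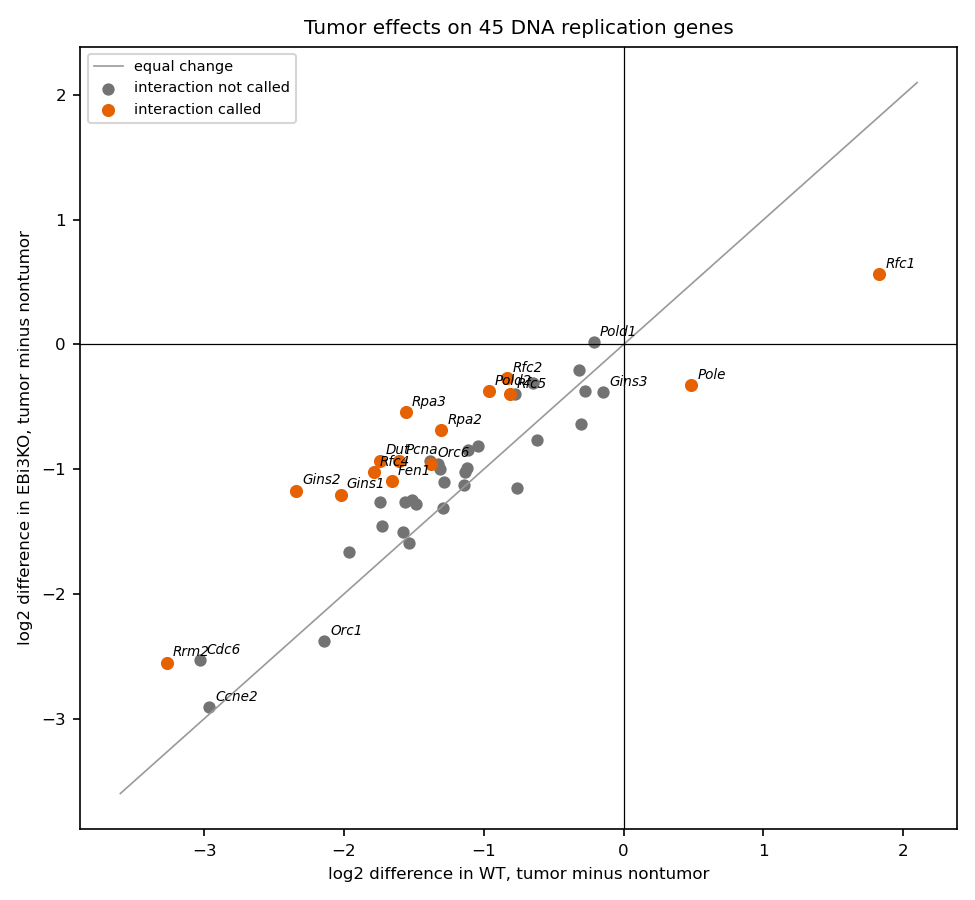
Tumor effect in WT (x axis) against that in EBi3KO (y axis), log2, for the 45 genes; orange points had a called interaction and the line marks equal change. Most points lie a little above the line at the lower left. Ccne2 lies close to it, Orc1, Tyms and Pola1 are among those under it, and Rfc1 and Pole lie to its right.

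Genes of the same processes outside the set were read from 6 further lists, with 100 genes in all, each of which was tested. Their counts stand beside 40.1% lower and 39.6% higher among all tested genes in WT, and 18.5% lower and 14.1% higher in EBi3KO. Among 20 other genes of the replisome and fork, 13 were called lower and 5 higher in WT (median -0.79), and 14 lower and 0 higher in EBi3KO (median -0.47). Dscc1, of an alternative clamp loader, fell by 2.28 and 1.48, and Tipin, of the fork protection complex, by 1.40 and 0.69. Rnaseh2b, of the RNase H2 complex that removes RNA from DNA, fell by 1.60 and 0.78. Of the WT rises Atad5, which helps to unload the clamp, was at 1.21 in WT and -0.25 in EBi3KO, and Top1 at 0.72 and 0.04, neither called in EBi3KO.

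Of 16 other genes of origin licensing and firing, 5 were called lower and 7 higher in WT (median 0.23), near the shares of all tested genes, and 4 lower and 1 higher in EBi3KO (median -0.12). Gmnn, the inhibitor of Cdt1, fell by 2.16 and 1.20, and Gins4, the remaining GINS subunit, by 1.17 and 0.40. Topbp1, which helps to fire origins, rose by 1.10 and 0.42. Mcm9, a relative of the MCM subunits that acts in repair, was at 0.92 in WT, called higher, and -0.13 in EBi3KO, not called.

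Of 12 other genes of nucleotide supply 7 fell in each genotype, and 3 rose in WT and 0 in EBi3KO. Nme1, a nucleoside diphosphate kinase, fell by 1.59 and 0.50. Rrm2b, the form of the small reductase subunit that serves resting cells, was at 0.82 in WT, called higher, and 0.15 in EBi3KO, not called. Samhd1, which breaks down deoxynucleotides, was at 0.69 and 0.16 with the same calls.

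Of 10 other chromatin genes 7 fell in each genotype, among them Asf1b, a histone chaperone, by 1.55 and 1.21. Dnmt1, the maintenance methyltransferase that Uhrf1 recruits, was called higher in WT at 0.85 and was at -0.07 in EBi3KO. Of 27 other G1 to S regulators 14 fell and 8 rose in WT (median -0.47), and 16 fell and 3 rose in EBi3KO (median -0.43). Ccna2, the S phase cyclin, fell by 2.59 and 2.05, Mybl2 by 1.89 and 1.45, and Dtl, which marks Cdt1 for destruction, by 1.80 and 1.84. Rbl2, a pocket protein of resting cells, rose by 0.72 and 0.43.

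Of 15 mitosis genes 12 fell and 2 rose in WT (median -1.38), and 14 fell and 0 rose in EBi3KO (median -1.20). Ccnb2, a mitotic cyclin, fell by 2.66 and 1.88, and Cdk1, its kinase, stood at -2.76 and -1.81. The 2 rises in WT were Mki67 (1.54) and Cenpf (1.66), which stood at -0.41, called lower, and 0.39, not called, in EBi3KO. Over the 100 genes, the length and GC correction turned the sign of 11 called WT values and scaling by total reads that of 6, none of them named here, and 0 called values in EBi3KO.

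Markers of other cells moved with tumor status in the same libraries. Among all tested genes 40.1% were called lower and 39.6% higher in WT, and 18.5% lower and 14.1% higher in EBi3KO. The calls of every marker list below stand beside these shares. Summed over 22 erythroid markers, 20 of them in the table, 0.687 to 0.7495% of reads were erythroid without a tumor and 0.0856 to 0.121% with one in WT mice, against 1.20 to 1.74% without and 0.316 to 0.326% with one in EBi3KO mice, and all 20 fell in both genotypes. Between the nontumor groups, where the erythroid sum was higher in both EBi3KO libraries than in either WT library, the sum over replication genes ran over 0.284 to 0.321% and 0.318 to 0.321%. Of 14 monocyte and macrophage markers, 14 fell in WT and 12 in EBi3KO, with sums of 0.618 to 0.678%, 0.0716 to 0.0810%, 0.548 to 0.684% and 0.362 to 0.364% in the same order of groups.

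Granulocyte markers fell in 9 of 9 cases in WT and 7 of 9 in EBi3KO, with sums of 0.00881 to 0.0206%, 0.00136 to 0.00157%, 0.0170 to 0.0171% and 0.00381 to 0.00381%. The 6 plasma cell markers summed to 0.134 to 0.148%, 0.0445 to 0.04995%, 0.106 to 0.116% and 0.220 to 0.220%, lower in WT tumor and higher in EBi3KO tumor than in their nontumor groups, while the replication sum was lower in both. By gene, 3 of the 6 were called lower and 2 higher in WT, and 1 lower and 4 higher in EBi3KO. The 7 germinal centre markers did not follow tumor status: the sum was 0.00914 and 0.0186% without a tumor and 0.0181 and 0.0187% with one in WT mice, and 0.0101 and 0.0173% without and 0.0132 and 0.0133% with one in EBi3KO mice. In the nontumor groups it was higher in replicate 2, while the replication sum was higher in replicate 2 in WT alone.

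T cell, NK cell, dendritic, platelet and progenitor markers each summed to under 0.03% of reads in all libraries. Called lower in WT and in EBi3KO were 7 and 1 of 10 T cell markers, 6 and 0 of 6 NK cell markers, 5 and 3 of 6 dendritic markers, 6 and 0 of 6 platelet markers, and 4 and 0 of 5 progenitor and mast cell markers. None of the markers in the table was at 0 in any library. B cell identity markers, of which Cd74 and Cd79a were the highest, summed to 2.08 to 2.22% of total reads in the 4 nontumor libraries. In the 4 tumor libraries they summed to 2.24 to 2.43%. Such shares do not use the deposited size factors, and scaling by total reads moved the median of all tested genes to 0.46 in WT and 0.17 in EBi3KO. A higher share is therefore no measure of more B cell RNA on the scale of the calls. Of the 10 B cell identity markers in the table, 6 were called higher and 3 lower in WT, among the latter Cd74 (-0.75) and Cd79a (-0.52). In EBi3KO 2 were called higher and 0 lower. The B cell Ighm and Ighd, the erythroid Hbb-bt and Ahsp, and the granulocyte Ly6g were not matched by symbol and were not used here. The part of other cells in the fall of the replication genes was not tested.

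**Figure D4:**
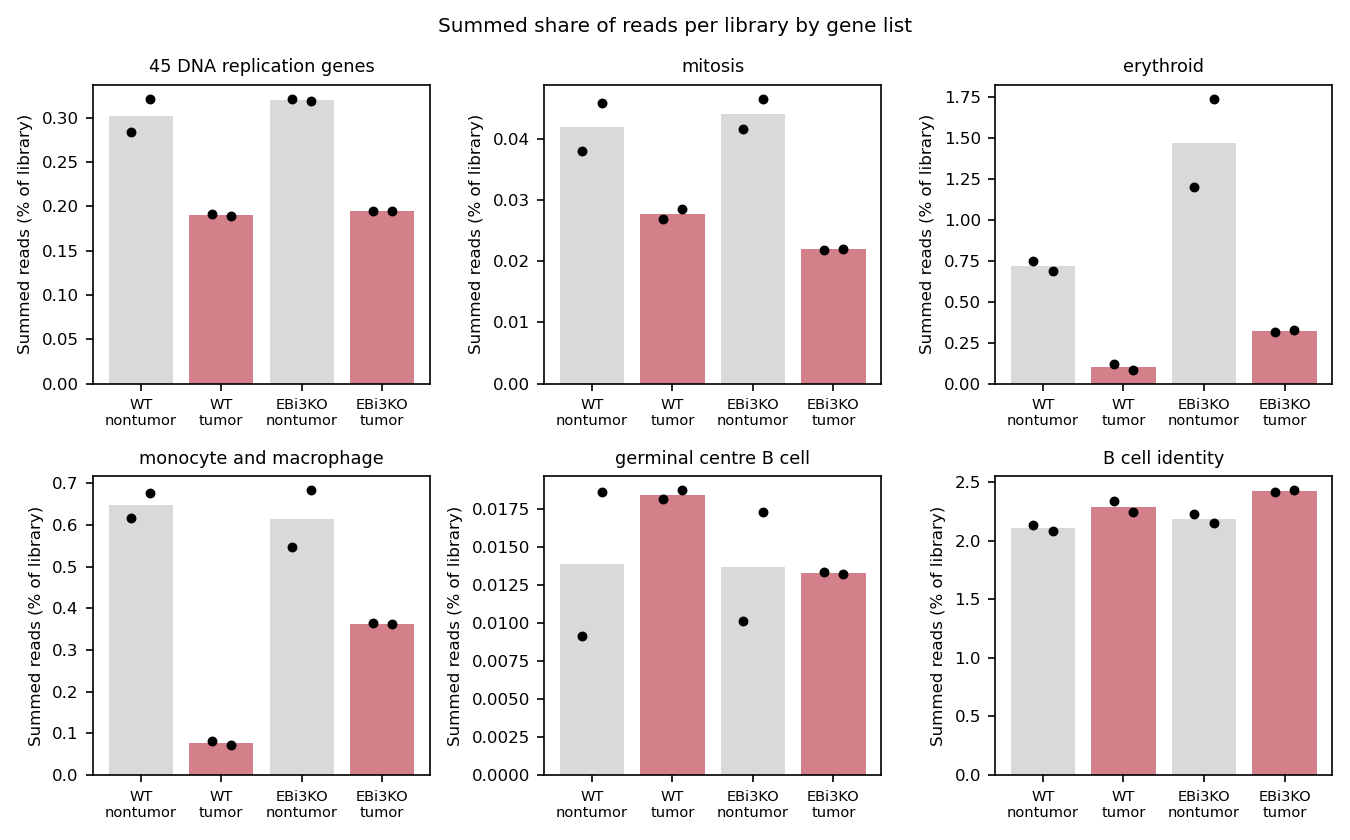
Summed share of reads per library for the 45 replication genes and 5 marker or process lists; points are libraries and bars the mean of the 2 in a group. The replication and mitosis sums are lower in both tumor groups, as are the erythroid and monocyte sums. As a share of total reads, the B cell identity sum is higher in the 4 tumor libraries (2.24 to 2.43%) than in the 4 nontumor libraries (2.08 to 2.22%). These shares do not use the deposited size factors, on which the calls of the main fit rest.

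Promoter sequences from RefSeq (GRCm38.p6) were at hand for 38 of the 45 genes, with 44 promoters of 300 bases (250 before and 50 after the start). Mcm4, Gins1, Gins2, Prim2, Pole, Rfc2 and Ccne2 were not matched. The E2F core was searched in the form TTGGCGC, the form TTGCCGC, the form TTCGCGC and the form TTCCCGC, each on both strands, and 27 of the 44 promoters held it (61.4%). Of all 32851 promoters 9.57% held it, and of the 12211 promoters of tested genes 16.2%, whose mean GC content of 60.1% was that of the replication promoters (60.0%). The CCAAT box (CCAAT, both strands) was in 56.8%, beside 37.4% of all and 37.9% of those of tested genes. The cell cycle homology region (TTTGAA, both strands) was in 11.4%, beside 17.9 and 12.5%.

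The E2F core was in 24 of 40 promoters of the genes called lower in both genotypes (60.0%). The other 4 promoters, those of Gins3, Pold1, Rfc1 and Rpa1, are too few for a comparison, and 3 of them held it (Gins3, Pold1 and Rfc1). Altogether 46 matches lay in 24 genes, 13 of them within 100 bases before the start and 19 after it. Several genes called lower in both genotypes held no match in these windows. They were Orc6, Mcm2, Mcm10, Cdc45, Pola2, Pold2, Pcna, Rfc5, Tyms, Tk1, Dut, Ccne1 and E2f1. A match describes letters in a window and is no measure of binding.

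**Figure D5:**
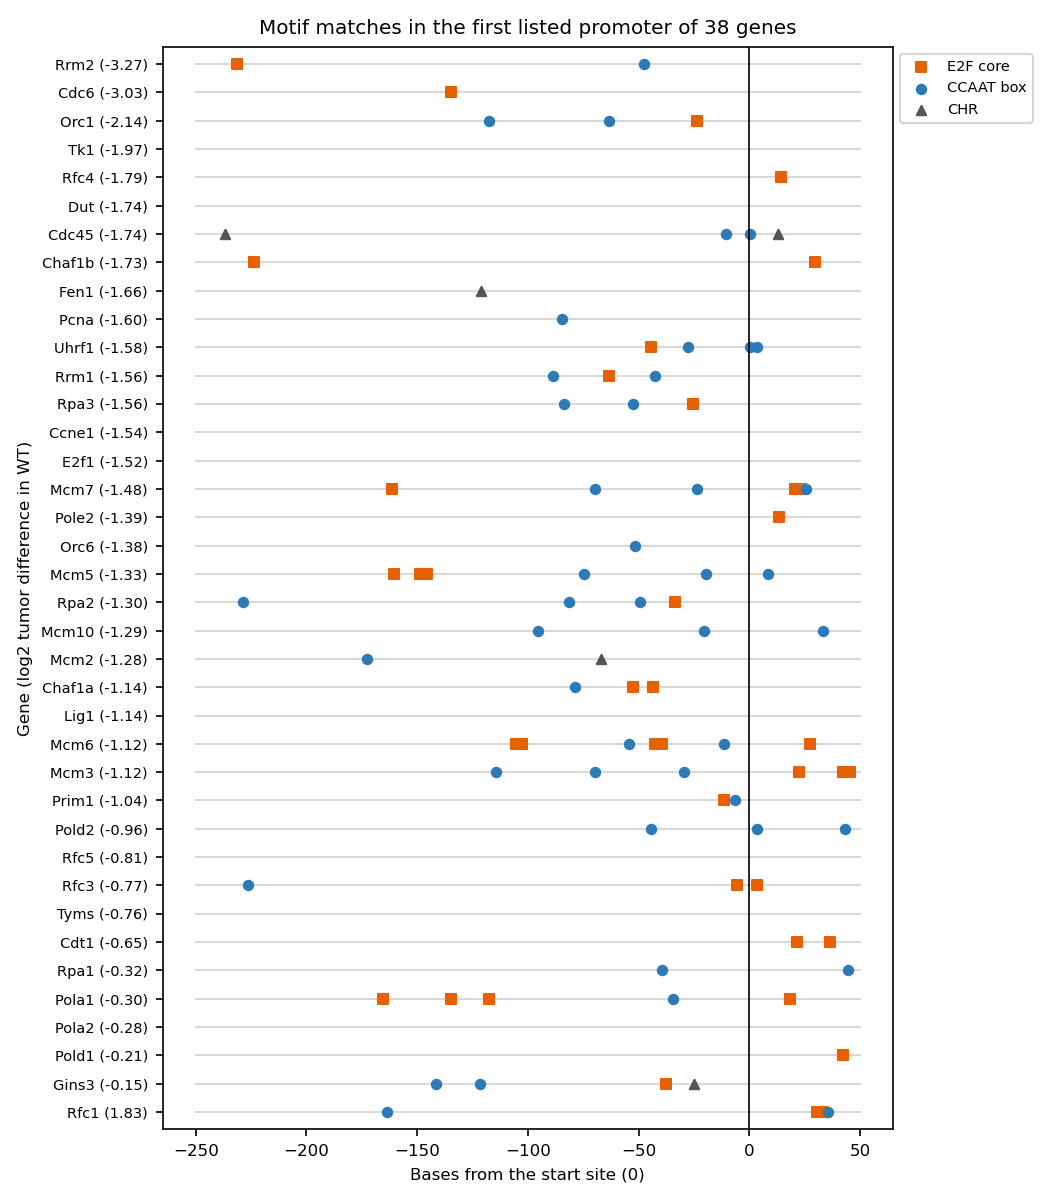
Position of each match to the E2F core (squares), CCAAT box (circles) and cell cycle homology region (triangles) from 250 bases before to 50 after the start site, in the first listed promoter of 38 genes, ordered by the tumor effect in WT from Rrm2 (-3.27) to Rfc1 (1.83). Matches to the E2F core occur from the top to the bottom of that order.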

How the data were processed

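RNA was extracted with an RNeasy Plus Mini kit and sequenced from stranded, paired-end mRNA libraries, per the labels' protocols. The submitters' processing notes name Salmon, DESeq2 and mm10; tool versions were not given in the sources used here. What the authors deposited is a signal, the normalized count, with 1 value per gene symbol and library, and 100% came out as whole reads within a tolerance of 0.01 once divided by each library's step. Of the 23302 entries, 27 bear dates in place of symbols.

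Genes averaging at least 10 (13011) were fitted together on log2(value + 1) with limma 3.58.1 in R 4.3.3, with 1 mean per group over all 8 libraries, a prior variance following the mean, and two-sided tests. P-values were adjusted by Benjamini-Hochberg within each of 5 comparisons and called below 0.05. The genes, their 9 roles, 6 process lists, 11 marker lists and motifs were chosen with earlier results of these data known. Library values are given, in each role, for the genes with the largest and the smallest WT tumor effect in size. They are also given for the gene with the highest mean count and for any that went against its role. Of process lists, the 4 smallest p in either tumor effect and those against the majority may be named. No list was tested as a set. Results for 1 gene of these lists and for 1 sequence are not reported here.

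The 2 libraries of a group were compared by a chi-square test over genes. EBi3KO tumor replicates were the closest pair (mean 2.10 per gene, 14.3 to 22.1 in the others), but differed beyond sampling noise and were kept as 2. Alternatives were other pseudocounts, filters, scalings and moderation, each library left out, tests of the recovered reads with edgeR (4.0.16) and with DESeq2 (1.42.0), a correction for transcript length and GC content, and a replicate block. The fits were tested on simulated data.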

Additional observations from a re-analysis of the deposited data

Results flagged for a closer look

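The tumor effect differed between genotypes, by the test of the interaction itself (limma, Benjamini-Hochberg over all tested genes), for 15 of the 45 replication genes. Of all tested genes 27.5% were called higher and 25.4% lower, so the share of 15 in 45 is below that of all tested genes. Each value is the log2 tumor effect of EBi3KO less the one of WT. Among the genes that fell, the fall was smaller in EBi3KO for Gins2 (1.17), Rpa3 (1.02), Gins1 (0.82), Dut (0.81), Rfc4 (0.77), Rrm2 (0.72), Pcna (0.67), Rpa2 (0.62), Pold2 (0.59), Rfc2 (0.57), Fen1 (0.57), Orc6 (0.42) and Rfc5 (0.41). The 2 negative values were those of Rfc1 (-1.26), which rose less in EBi3KO, and Pole (-0.81), which rose in WT and was not called in EBi3KO. All 15 rest on the WT tumor libraries, which differ from the others in sex and title prefix, and the part of those differences was not tested.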

How the results depend on the processing

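With each of the 8 libraries left out in turn, the WT tumor effect called 40 to 42 of the 45 genes lower and 1 to 2 higher (median -1.42 to -1.21), and the EBi3KO tumor effect 31 to 42 lower and 0 to 1 higher (-1.05 to -0.91). The genotype effect in nontumor mice called 0 in either direction (-0.11 to 0.11), that in tumor mice 2 to 4 lower and 10 to 27 higher (0.19 to 0.32), and the interaction 2 to 3 lower and 9 to 23 higher (0.20 to 0.40).

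The correction for length and GC content gave 1 higher in WT, beside 39.0% of all tested genes, at a median of -1.08. In EBi3KO the median was -0.87. Between genotypes in tumor mice 12 were higher, beside 21.1%, at a median of 0.15. In the interaction 4 were lower and 8 higher, beside 18.6% and 18.3%. The correction reversed Pola2 (0.0677), Pole (-0.24) and Rfc3 (0.000682) in WT. Between genotypes in tumor mice it reversed Cdt1 (-0.0726), Pola1 (0.13), Pold2 (-0.16), Prim1 (-0.10) and Rfc3 (-0.045), and in the interaction Orc6 (-0.0652) and Pold2 (-0.0847). Scaling by total reads, added after the data had been seen, gave 4 higher in WT, beside 54.0% of all tested genes, at a median of -0.86. In EBi3KO the median under that scaling was -0.81. Between genotypes in tumor mice it gave 7 lower and 12 higher, beside 39.1% and 23.9%, at a median of 0.06695. For the interaction it gave 7 lower and 7 higher, beside 37.8% and 18.9%, at a median of 0.0003995. Scaling by total reads reversed Pola1 (0.15), Pola2 (0.18), Pold1 (0.24) and Rpa1 (0.13) in WT. Moderation without the trend called 0 higher in EBi3KO, beside 6.22% of all tested genes. With the EBi3KO tumor libraries averaged as 1 sample, the median was -0.99 in EBi3KO and 0.26 between genotypes in tumor mice. Fewer genes were then called in both comparisons. The cause of these changes was not tested.

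Titles of the 2 WT groups share numbers, with no label that says what they mean. With the title number as a replicate block the WT tumor effect called 38 lower and 2 higher. Of all tested genes that fit called 35.6% lower and 35.9% higher. Deviations of the same-numbered libraries correlated at -0.26. A crossed pairing, added after the data had been seen, called 42 lower and 2 higher, beside 41.0% and 41.1% of all tested genes.

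Of the calls, 36 of 44 in WT, 31 of 41 in EBi3KO, 9 of 27 between genotypes in tumor mice and 3 of 15 in the interaction were kept under every alternative run. With 2 libraries a group, small differences such as those of Gins3, Pold1 and Rpa1 lie near what these fits can call. Against counting error alone, the spread between the 2 libraries of a group gave a mean chi-square per replication gene of 1.87 in EBi3KO tumor, where counting error is a large part of it, and of 5.05 to 17.2 in the other groups.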
